A study of Mus musculus with 8 samples.

Results

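The genes described here encode enzymes and small proteins that remove reactive oxygen species, reduce peroxides and disulfides, conjugate reactive compounds with glutathione, or bind metals. They were chosen by gene symbol alone: glutathione S-transferases, glutathione peroxidases, peroxiredoxins, every gene whose symbol starts with Txn, superoxide dismutases, both subunits of glutamate-cysteine ligase, metallothioneins 1 and 2, and Gss, Gsr, Cat, Nqo1, Hmox1 and Srxn1. The choice took 61 of the 18933 genes in each deposited table, by a rule that uses no measured value. Messenger RNA had been sequenced from cultured mouse adipocytes in 4 groups of 2 samples, given inhibitors of miR-182, miR-203 or miR-708, or a control labelled NC. Cells of the stromal vascular fraction, which holds the precursors of fat cells, were transfected with locked nucleic acid inhibitors at 100 nM, returned to full medium after 8 h, and differentiated with insulin, dexamethasone, IBMX and rosiglitazone. RNA was taken 4 days into differentiation. The series title speaks of brown adipocytes, but the labels name no fat depot, mouse strain, genotype or age. Nor do they state the control's transfection or the origin of the paired samples in a group, so the authors' p-values may cover technical spread alone.

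A cell's antioxidant systems work as chains of electron transfer that start from NADPH. Glutathione, made from glutamate, cysteine and glycine, is oxidised by the glutathione peroxidases and reduced again by glutathione reductase, while peroxiredoxins are recharged by thioredoxin and thioredoxin reductase. The transcription factor NRF2 controls many of these genes and the zinc sensor MTF1 controls the metallothioneins, whereas peroxidases of the endoplasmic reticulum use the peroxide made when secretory proteins are folded. Brown adipocytes are rich in mitochondria and burn fuel for heat, which makes superoxide and haem turnover part of their normal metabolism.

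An inhibitor of this kind pairs with a mature microRNA, and a microRNA recognises messenger RNAs mainly through its seed, bases 2 to 8 from the 5′ end. The mature sequences are shown because the treatments are defined by them. The labels do not say which arm of each hairpin the inhibitors were designed against, so the arm usually cited for each name was taken, from RefSeq on the mouse build GRCm38.p6, with the seed in capitals. The miR-182 gene lies at chr6:30165962-30165986 on the minus strand, the miR-203 gene at chr12:112130927-112130948 on the plus strand and the miR-708 gene at chr7:96249450-96249472 on the plus strand, each interval being that of the mature sequence. No seed is shared between them.
mmu-miR-182-5p: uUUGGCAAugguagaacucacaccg
mmu-miR-203-3p: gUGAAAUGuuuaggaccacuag
mmu-miR-708-5p: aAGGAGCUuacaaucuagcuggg

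The deposited values were FPKM (fragments counted per length of transcript and scaled to the library's mapped total), 1 pooled value per gene and group. No spread between samples can be computed from them, and the depth of the libraries is unknown. The verbs rose and fell, and the word called, are used for genes whose q-value in the authors' deposited table (Cuffdiff, per the submitters' processing notes) lay below 0.05. The 3 tables share the control samples, so a high or low control value enters every comparison of a gene, and differences between the inhibitors were not tested. The cultures expressed all 7 fat cell markers examined, with a summed level of 41468 FPKM in the control and between 39601 and 47735 FPKM with the inhibitors, most of it Fabp4 (37475 FPKM in the control). Of these 7, Adipoq, Cebpa and Cfd rose with the miR-182 inhibitor and Cfd with each of the other inhibitors, and none fell, also at an unadjusted p below 0.05 in the authors' deposited tables. The 5 brown fat markers summed to 2597 FPKM in the control and to 1382, 2095 and 2055 FPKM with the miR-182, miR-203 and miR-708 inhibitors, and 4, 2 and 2 of them fell, Ucp1 and Cidea in each table. The 7 markers of fat cell precursors summed to 107 FPKM in the control and to 259.7, 189 and 182.1 FPKM with the inhibitors in the same order, and the 6 tested markers rose in each table. The untested Dpp4 stood at 0.273 FPKM in the control and at 0.112, 0.264 and 0.0267 FPKM with the inhibitors. Cd34 and Pi16 also lay below 1 FPKM in the control. Of all tested genes 8.40%, 4.72% and 4.51% rose and 6.23%, 2.51% and 3.05% fell in the 3 tables. In RNA from mixed cultures, fewer cells of a type and less RNA per cell cannot be told apart. Macrophage markers summed to 7.64 FPKM in the control and 4.56, 6.94 and 5.59 FPKM with the inhibitors, with Lyz2 called lower with the miR-182 inhibitor (3.32 to 1.46 FPKM) and Emr1, Csf1r, Mrc1 and Cd14 below 1 FPKM in each, and endothelial markers to between 22.7 and 30.9 FPKM, nearly all of it Egfl7. No marker was listed at 0 in the control.

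The antioxidant genes were strongly expressed before any comparison. In the control, 48 of the 61 stood at 10 FPKM or more, 18 at 100 or more and 4 at 1000 or more, whereas 34.3% of all genes stood below 1 FPKM. Metallothioneins 2 and 1 held ranks 23 and 24 among all 18933 genes, the lipid peroxidase Gpx4 rank 66 and the cytosolic superoxide dismutase Sod1 rank 114. Gstm6 and the processed pseudogene Prdx2-rs3 averaged under 1 FPKM and were not tested by the authors, which leaves 59 genes with a test. For the middle gene of the 59, the highest of the 4 groups was 1.27 times the lowest, close to the 1.26 times found over all genes at 1 FPKM or more. In 12 of the 59 the ratio was at least 1.5, and in 5 at least 2 (Hmox1, Mt2, Gpx7, Gsto2 and Gstt3). Of these, Gsto2 and Gstt3 averaged only 1.60 and 1.52 FPKM over the 4 groups and were not called in any table. Their loci are given to 4 and 2 genes.

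**Figure D1:**
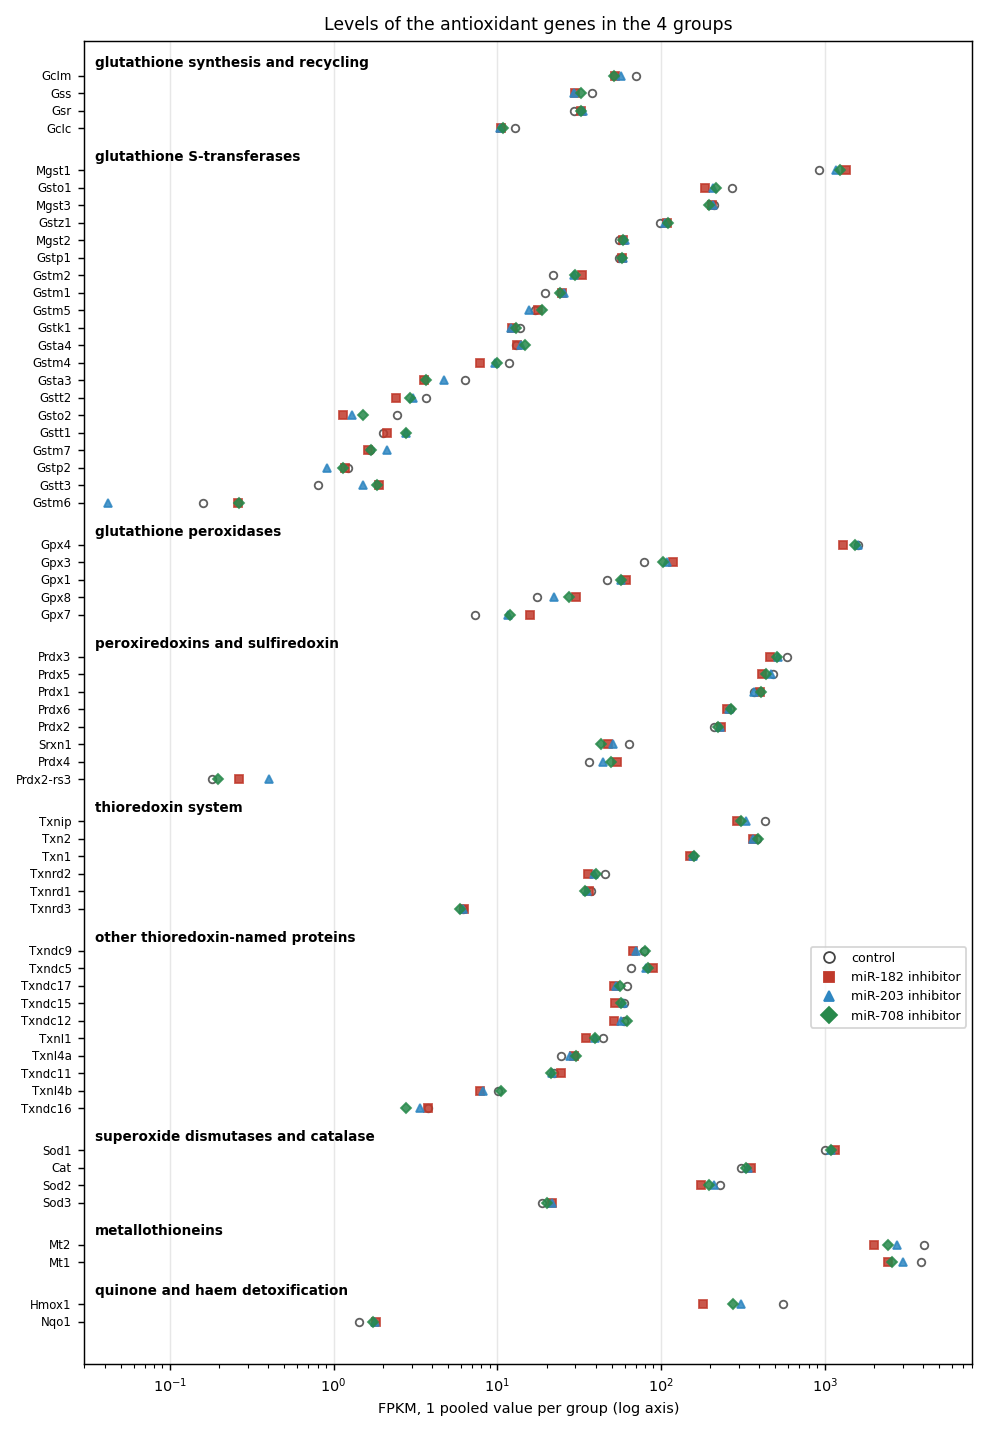
FPKM on a log axis of the 61 antioxidant genes, 1 pooled value per group, ordered by role and by level; open circles are the control and filled marks the 3 inhibitors. Most rows show 4 overlapping marks, while Hmox1 spreads from 181.8 to 559 FPKM and Mt2 from 2008 to 4052 FPKM.

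With the miR-182 inhibitor 8 of the 59 tested genes rose (13.6%, against 8.40% of all 14391 genes tested) and 8 fell (13.6%, against 6.23%). With the miR-203 inhibitor 3 rose (5.08%, against 4.72% of 14371) and 3 fell (5.08%, against 2.51%). With the miR-708 inhibitor 7 rose (11.9%, against 4.51% of 14316) and 4 fell (6.78%, against 3.05%). The shares with the miR-203 inhibitor were thus near the background for genes that rose. Counted in either direction, 27.1%, 10.2% and 18.6% of the antioxidant genes changed in the miR-182, miR-203 and miR-708 tables, against 14.6%, 7.23% and 7.56% of all tested genes. Among all tested genes at 1 FPKM or more, the filter that all 59 pass, the background in the same order was 15.3%, 7.34% and 7.97% in either direction, 8.50%, 4.80% and 4.78% for a rise, and 6.77%, 2.54% and 3.18% for a fall. The median of the set stayed near that of all genes. The median log2 ratio of its 59 genes to the control, on the log2(FPKM + 1) scale, was -0.04, -0.02 and 0.02, against -0.02, -0.01 and -0.02 for all genes passing the same filter. In all, 16 of the genes changed in at least 1 table and 45 in none.

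**Figure D2:**
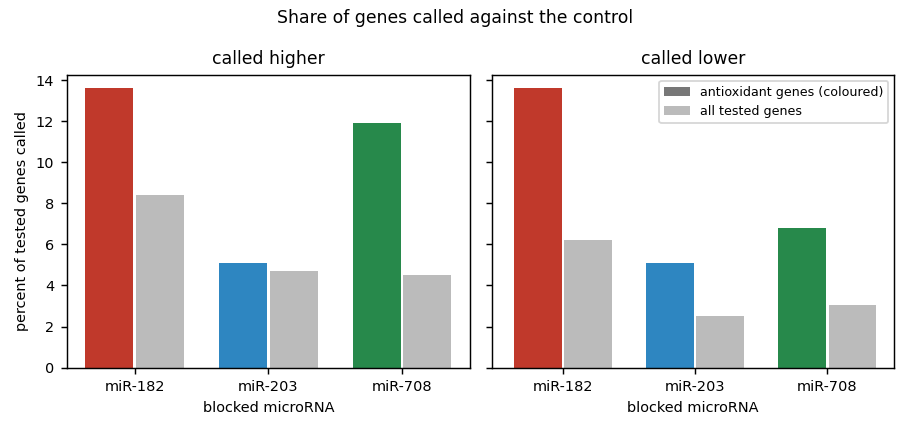
Share of genes called by the authors at q below 0.05, in percent, for the antioxidant genes and for all tested genes, by inhibitor and direction. The bars for the antioxidant genes reach 13.6% in both directions with the miR-182 inhibitor and stay at 5.08% with the miR-203 inhibitor.

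Hmox1 showed the largest fold change among the genes of the set called lower, with each of the 3 inhibitors. It encodes haem oxygenase 1, which opens haem to release iron, carbon monoxide and biliverdin, and lies on chromosome 8 from 75093621 to 75100589 on the plus strand of mm10 (gene coordinates here are those of GENCODE M21). Its level was 559 FPKM in the control, 181.8 FPKM with the miR-182 inhibitor, 309.6 FPKM with the miR-203 inhibitor and 274 FPKM with the miR-708 inhibitor. Every inhibitor group lay below the control, and the miR-182 group was the lowest. The level was thus 3.08-fold, 1.81-fold and 2.04-fold lower than in the control, each at a q of 0.00176, the smallest that the authors' deposited tables hold. The other gene of this role, Nqo1, encodes a quinone reductase that is a standard NRF2 target. It was barely expressed, at 1.43 FPKM in the control and 1.82, 1.79 and 1.74 FPKM with the inhibitors, and was not called in any table (q of 0.447, 0.517 and 0.618 in the authors' deposited tables).

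The metallothioneins, small cysteine-rich proteins that hold zinc and copper, were the most abundant members and fell as well. Mt2 stood at 4052 FPKM in the control and at 2008, 2761 and 2444 FPKM with the miR-182, miR-203 and miR-708 inhibitors. The control was the highest group and the miR-182 group the lowest, a fall of 2.02-fold, 1.47-fold and 1.66-fold with a q of 0.00176 in each of the authors' deposited tables. Mt1 stood at 3869 FPKM in the control and at 2451, 3031 and 2573 FPKM with the inhibitors. It was 1.58-fold and 1.504-fold lower with the miR-182 and miR-708 inhibitors, again at a q of 0.00176 in the authors' deposited tables. With the miR-203 inhibitor its level was 1.28-fold below the control and missed the threshold, at a q of 0.0560 in the authors' deposited table. The 2 genes lie side by side on the plus strand of chromosome 8, Mt2 from 94172664 to 94173568 and Mt1 from 94179082 to 94180327. Levels of Hmox1 and both metallothioneins moved in the same direction as the summed brown fat markers and opposite to the precursor markers given above, and Lyz2 of the macrophage markers was lower with the miR-182 inhibitor. The part of any of these in the falls was not tested.

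The promoters of both metallothionein genes are shown because the genes moved side by side and because metal response elements are the textbook feature of this family. Each runs from 250 bases before to 50 bases after the RefSeq start of the gene on the plus strand of GRCm38.p6, which is a few bases from the gene start given above for Mt1 and upstream of it for Mt2: Mt1 at chr8:94178839-94179138 and Mt2 at chr8:94172368-94172667. Capitals mark matches to the metal response cores TGCACNC and TGCGCNC on either strand.
Mt1: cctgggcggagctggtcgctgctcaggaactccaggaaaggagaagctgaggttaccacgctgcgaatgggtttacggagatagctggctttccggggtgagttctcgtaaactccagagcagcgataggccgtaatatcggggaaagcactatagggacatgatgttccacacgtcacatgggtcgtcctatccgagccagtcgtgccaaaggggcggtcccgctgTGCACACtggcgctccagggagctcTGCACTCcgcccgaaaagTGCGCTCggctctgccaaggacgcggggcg
Mt2: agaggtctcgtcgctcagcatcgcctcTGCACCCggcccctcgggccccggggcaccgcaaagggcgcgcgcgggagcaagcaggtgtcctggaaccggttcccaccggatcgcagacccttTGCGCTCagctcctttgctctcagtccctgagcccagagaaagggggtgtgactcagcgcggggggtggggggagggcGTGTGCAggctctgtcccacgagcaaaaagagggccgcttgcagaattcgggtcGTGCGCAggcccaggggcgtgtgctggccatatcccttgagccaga

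Mt1 held 3 matches and Mt2 held 4, where 1.97% of all 32851 RefSeq promoters of this length held 3 or more and 0.517% held 4 or more. Among the 12136 promoters of tested genes these shares were 3.25% and 0.915%. They were 4.41% and 1.47% among the 68 promoters of members, Mt1 and Mt2 included. The promoter of Gclm, a gene not called in any table, also held 3 matches. Counted from the RefSeq start, the match nearest upstream began 23 bases before it in Mt1 and 50 bases before it in Mt2. At least 1 match is common, being found in 25.7% of all promoters, in 35.6% of those of tested genes and in 30.9% of the 68 promoters of the 51 antioxidant genes with an entry. The antioxidant response cores TGACNNNGC and TGAGNNNGC were searched on both strands. At least 1 match to either was found in 30.9% of the members' promoters, in 31.2% of those of tested genes and in 27.8% of all promoters. TGACNNNGC alone was found in 17.6% of the members' promoters and 14.5% of those of tested genes, and TGAGNNNGC in 17.6% and 19.8%. Thus only with both forms pooled, and counted as at least 1 match, was neither kind of core more frequent in the members than in tested genes. Srxn1 held 3 antioxidant response cores and Mt2 held 1 match to TGACNNNGC, at 79 bases before the RefSeq start. A match of this kind is a description of the letters and not a site shown to be bound. Gclc, Gsr, Gsta4, Gstt2, Hmox1, Prdx2-rs3, Prdx6, Sod3, Txnl1 and Txnl4a were not searched.

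**Figure D3:**
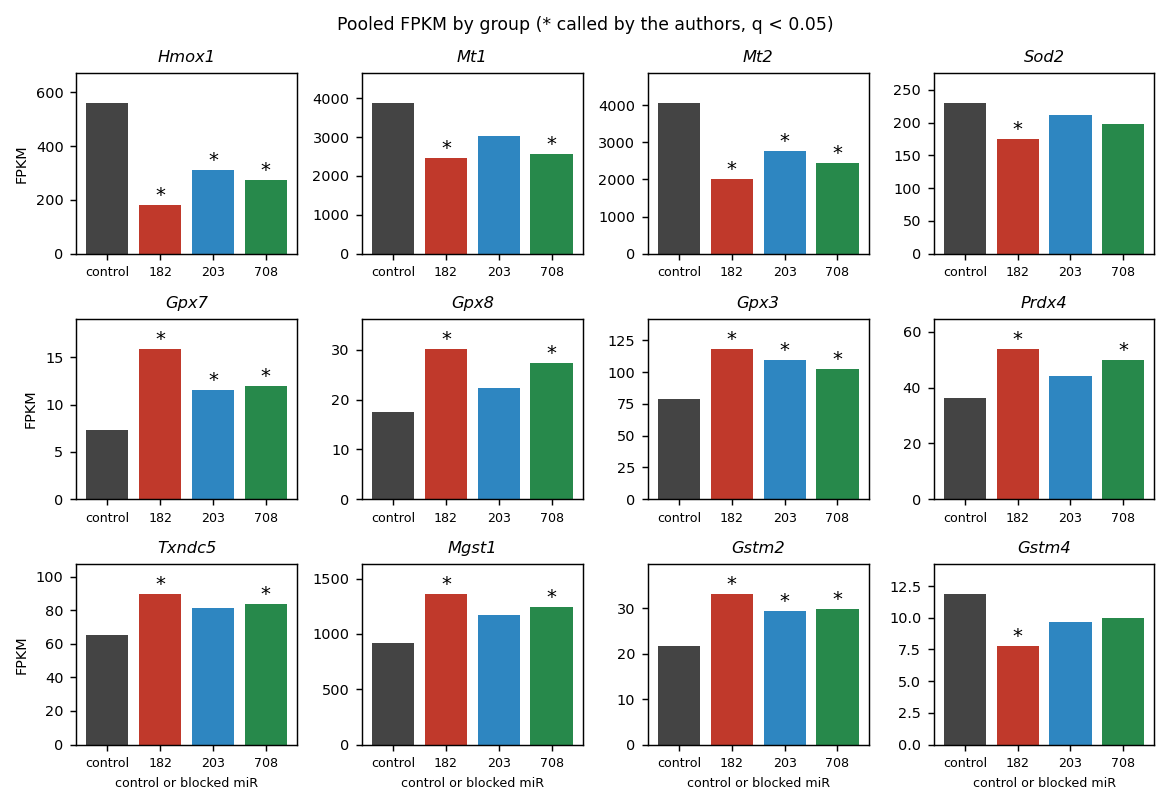
FPKM of the members that the text turns on, 1 panel per gene and 1 bar per group, each axis starting at 0, with an asterisk where the authors' q was below 0.05; no error bars are drawn because each group has 1 pooled value. Hmox1 (559 FPKM in the control), Mt2 (4052 FPKM) and Mt1 (3869 FPKM) are highest in the control, and Gpx7 (7.36 FPKM) and Gpx8 (17.4 FPKM) lowest there.

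Among the 5 glutathione peroxidases 4 rose with the miR-182 inhibitor, 2 with the miR-203 inhibitor and 3 with the miR-708 inhibitor, and none fell, either at this threshold or at an unadjusted p below 0.05 in the authors' deposited tables. Of all tested genes 8.40%, 4.72% and 4.51% rose in the same comparisons. Gpx7, a peroxidase of the endoplasmic reticulum that passes oxidising power to protein disulfide isomerase, stood at 7.36 FPKM in the control and at 15.9, 11.6 and 11.99 FPKM with the inhibitors in the order above. The control was the lowest group, and the level was 2.16-fold, 1.58-fold and 1.63-fold higher with a q of 0.00176 in each of the authors' deposited tables. Gpx8, its membrane-anchored relative in the same compartment, stood at 17.4 FPKM in the control and at 30.2, 22.3 and 27.4 FPKM with the inhibitors. It rose 1.74-fold and 1.57-fold with the miR-182 and miR-708 inhibitors (q of 0.00176 in the authors' deposited tables) and was not called with the miR-203 inhibitor (q of 0.0887). The Gpx8 locus is given to 2 genes. Neither enzyme uses selenium.

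The 3 selenium-dependent peroxidases differed among themselves. Gpx3, the secreted enzyme of plasma, rose from 78.7 FPKM in the control to 118, 109 and 102 FPKM, with q-values of 0.00176, 0.00928 and 0.0395 in the authors' deposited tables. Gpx1, the cytosolic enzyme, stood at 46.7 FPKM in the control and at 61.0, 57.3 and 57.2 FPKM with the inhibitors, and was called only with the miR-182 inhibitor (q of 0.0381, against 0.180 and 0.183 in the authors' other deposited tables). All 3 inhibitor groups lay above the control in both genes. Gpx4, which reduces peroxides inside membranes and protects cells from ferroptosis, stood at 1601 FPKM in the control and at 1293, 1610 and 1526 FPKM, with no call in any table. Of the 50-base windows of Gpx4 transcripts, 34.7% also occur in other annotated genes, among them the pseudogene Gpx4-ps2, so its level is uncertain.

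Of the peroxiredoxins and sulfiredoxin only Prdx4 was called. Of all tested genes 8.40% and 4.51% rose with the miR-182 and miR-708 inhibitors, so 1 call among 7 tested is too few to set the class apart. Prdx4, the peroxiredoxin of the endoplasmic reticulum, stood at 36.2 FPKM in the control and at 54.0, 44.3 and 49.8 FPKM with the inhibitors. It was lowest in the control and rose 1.49-fold with the miR-182 inhibitor and 1.38-fold with the miR-708 inhibitor, at q-values of 0.00176 and 0.00706 in the authors' deposited tables, while the miR-203 comparison had a q of 0.198. Prdx3, the mitochondrial peroxiredoxin, was the most abundant of the family, at 588 FPKM in the control and 463, 521 and 509 FPKM with the inhibitors. Its miR-182 comparison lay just past the threshold, with a q of 0.0530 in the authors' deposited table. Prdx5, found in mitochondria, peroxisomes and cytosol, stood at 485 FPKM in the control and at 412, 468 and 439.8 FPKM. The cytosolic Prdx1 and Prdx2 and the glutathione-dependent Prdx6 differed from the control by at most 1.11-fold in any group. Srxn1, sulfiredoxin, which repairs overoxidised peroxiredoxins, stood at 64.1 FPKM in the control and at 47.3, 50.6 and 43.3 FPKM, with no call (q of 0.722, 0.758 and 0.495 in the authors' deposited tables).

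No gene of the thioredoxin system was called in any of the authors' deposited tables. At Cuffdiff's unadjusted p below 0.05, 1 of 6 was lower with the miR-182 inhibitor, 0 with the miR-203 inhibitor and 1 with the miR-708 inhibitor. No share of all tested genes at that p was computed to set beside these counts. Txn1, the cytosolic thioredoxin, stood at 157.5 FPKM in the control and at 149.7, 156.7 and 160.1 FPKM with the inhibitors. Txn2, its mitochondrial counterpart, stood at 388 FPKM in the control and at 365, 366 and 391 FPKM. The selenoenzymes that reduce them were lower in level, with Txnrd1 of the cytosol at 37.6, 36.3, 35.6 and 34.4 FPKM in the control, miR-182, miR-203 and miR-708 groups. The mitochondrial Txnrd2 stood between 36.04 and 45.2 FPKM and Txnrd3 between 5.95 and 6.27 FPKM. Txnip, which binds and inhibits thioredoxin and responds to glucose, was the exception in size, at 431 FPKM in the control and 294, 329 and 311 FPKM with the inhibitors. The control was the highest group, but the q-values in the authors' deposited tables were 0.1004, 0.403 and 0.218.

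Of the 10 other proteins named after thioredoxin, Txndc5 rose with the miR-182 and miR-708 inhibitors and Cuffdiff called no other. Of all tested genes 8.40% and 4.51% rose in those comparisons, so 1 call among 10 is too few to set the class apart. At Cuffdiff's unadjusted p below 0.05, 3, 1 and 1 were lower in the miR-182, miR-203 and miR-708 tables. The share of all tested genes at that p was not computed. Txndc5, a disulfide isomerase of the endoplasmic reticulum, stood at 65.4 FPKM in the control and at 89.5, 81.2 and 83.4 FPKM with the inhibitors, with q-values of 0.00327, 0.111 and 0.04995 in the authors' deposited tables. The control was again the lowest group, and the miR-708 call lies at the edge of the threshold. Txndc9, a cytosolic protein of the chaperonin pathway, was the most abundant of them, at 78.7 FPKM in the control and 67.1, 70.9 and 80.5 FPKM with the inhibitors. The remaining Txndc11, Txndc12, Txndc15, Txndc16, Txndc17, Txnl1, Txnl4a and Txnl4b ranged from 3.78 to 61.9 FPKM in the control.

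The transferases moved in both directions, with 2 up and 4 down of the 19 tested with the miR-182 inhibitor, 1 up and 1 down with the miR-203 inhibitor, and 2 up and 1 down with the miR-708 inhibitor. Among all tested genes 8.40% were up and 6.23% down, 4.72% up and 2.51% down, and 4.51% up and 3.05% down in the same tables. The 2 of 19 up with the miR-182 inhibitor are near that share, and the 4 down were not tested against theirs. The counts in the miR-203 and miR-708 tables are too small to set the class apart. Mgst1, a membrane transferase of the endoplasmic reticulum and outer mitochondrial membrane, was the most abundant of the class at 921 FPKM in the control and 1359, 1171 and 1239 FPKM with the inhibitors. It was lowest in the control, and the rise of 1.47-fold and 1.34-fold with the miR-182 and miR-708 inhibitors had q-values of 0.00176 and 0.0216 in the authors' deposited tables. Gstm2 of the mu class rose with all 3 inhibitors, from 21.8 FPKM in the control to 33.1, 29.4 and 29.7 FPKM, with q-values of 0.00176, 0.0318 and 0.0145 in the authors' deposited tables. Gstm4 of the same class stood at 11.9 FPKM in the control and at 7.80, 9.69 and 9.98 FPKM with the inhibitors, and was called lower with the miR-182 inhibitor only (q of 0.0208, 0.430 and 0.662 in the authors' deposited tables). Both lie within the mu class cluster on the minus strand of chromosome 3, Gstm2 from 107981702 to 107986453 and Gstm4 from 108040408 to 108044894, with Gstm1 between them at 19.6 FPKM in the control and 24.7, 25.7 and 24.3 FPKM with the inhibitors and no call. Of the 50-base windows of Gstm2, 5.65% occur in other genes of the annotation, against 0 of those of Gstm4.

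Gsto1, an omega class enzyme that reduces dehydroascorbate and mixed disulfides, was the second most abundant transferase, at 270.2 FPKM in the control and 187, 209 and 217 FPKM with the inhibitors. It was highest in the control and fell with the miR-182 and miR-203 inhibitors, at q-values of 0.00176 and 0.0375 in the authors' deposited tables, against 0.0972 with the miR-708 inhibitor. The tables give its locus to 4 genes, among them Gsto2, which was not called at 2.45 FPKM in the control and 1.14, 1.30 and 1.52 FPKM with the inhibitors. Gsta3 of the alpha class was weakly expressed and fell with the miR-182 and miR-708 inhibitors, from 6.34 FPKM in the control to 3.56 and 3.67 FPKM (q of 0.00176 in each of the authors' deposited tables), while the miR-203 group stood at 4.71 FPKM with a q of 0.110. Gstt2 of the theta class stood at 3.68 FPKM in the control and at 2.41, 3.06 and 2.94 FPKM, and was called lower with the miR-182 inhibitor alone (q of 0.0153 in the authors' deposited table). Mgst2, Mgst3, Gstz1, Gstp1, Gstp2, Gstk1, Gsta4, Gstm1, Gstm5, Gstm7, Gstt1 and Gstt3 were not called in any table. Gstp1 and Gstp2 share 33.7% and 54.3% of their 50-base windows with other genes, and Gstm1 18.9%, so the split of reads among these is uncertain.

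The dismutases and catalase held close to the control apart from Sod2. Sod2, the manganese enzyme of the mitochondrial matrix, stood at 229.7 FPKM in the control and at 175, 212 and 198 FPKM with the inhibitors, and fell 1.31-fold with the miR-182 inhibitor (q of 0.0232, against 0.819 and 0.418 in the authors' other deposited tables). Other annotated genes hold 21.0% of the 50-base windows of Sod2. Sod1, the copper and zinc enzyme of the cytosol, stood at 1006 FPKM in the control and at 1153, 1097 and 1089 FPKM. Cat, the peroxisomal catalase, stood at 309 FPKM in the control and at 355, 340.4 and 330.3 FPKM. The secreted Sod3 stood at 18.6 FPKM in the control and at 21.7, 21.6 and 20.1 FPKM. The inhibitor groups lay above the control in all of these last 3 genes, by at most 1.17-fold and without a call.

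The genes that make and recycle glutathione were not called in any of the authors' deposited tables. At an unadjusted p below 0.05 Cuffdiff gave 2 of 4 lower with the miR-182 inhibitor, 1 lower with the miR-203 inhibitor and 0 with the miR-708 inhibitor. The share of all tested genes lower at that p was not computed, so these counts cannot be weighed. Gclc, the catalytic subunit of glutamate-cysteine ligase, stood at 12.8 FPKM in the control and at 10.6, 10.4 and 10.9 FPKM with the inhibitors. Its modifier subunit Gclm stood at 70.5 FPKM in the control and at 52.5, 57.2 and 51.6 FPKM. In both subunits the control was the highest group. Gss, glutathione synthetase, stood at 38.0, 30.0, 29.6 and 32.6 FPKM in the control, miR-182, miR-203 and miR-708 groups, in a locus that the tables give to 8 genes. Gsr, glutathione reductase, stood at 29.4 FPKM in the control and at 32.6, 33.3 and 32.6 FPKM.

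**Figure D4:**
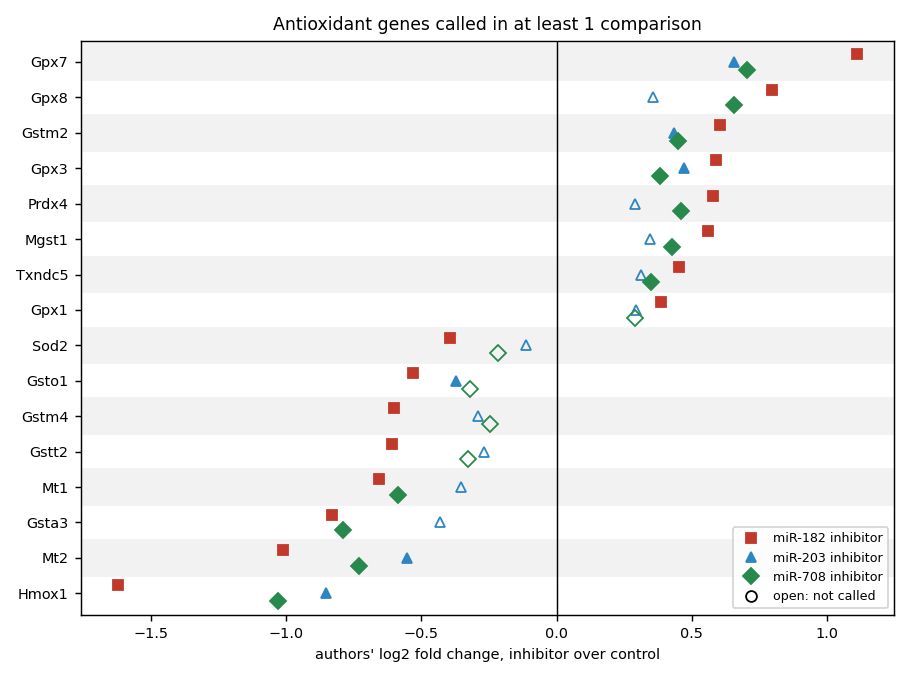
Log2 fold change over the control from the authors' deposited tables, with no pseudocount, of the 16 genes called in at least 1 table, with filled marks where the authors' q was below 0.05 and open marks where it was not. With the miR-182 inhibitor Gpx7 lies farthest to the right at 1.11 and Hmox1 farthest to the left at -1.62.

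Sorted by compartment rather than by enzyme class, a grouping made after the values had been seen and therefore given without a test, members of the endoplasmic reticulum were counted together. Of 7 (Gpx7, Gpx8, Prdx4, Txndc5, Txndc11, Txndc12 and Txndc16), 4, 1 and 4 rose with the miR-182, miR-203 and miR-708 inhibitors and none fell, with 0, 0 and 1 lower at Cuffdiff's unadjusted p below 0.05. Their summed level was 211 FPKM in the control and 269.7, 241 and 259 FPKM with the inhibitors. Of the 4 members of the mitochondrial matrix (Sod2, Prdx3, Txn2 and Txnrd2) none rose, also at an unadjusted p below 0.05, 1 fell with the miR-182 inhibitor, and the summed level was 1251 FPKM in the control and 1039, 1139 and 1138 FPKM with the inhibitors. The shares of all tested genes that rose were 8.40%, 4.72% and 4.51% in the same comparisons, and 6.23%, 2.51% and 3.05% fell. The mitochondrial counts, and the reticulum count with the miR-203 inhibitor, are too small to be told apart from these shares. The reticulum counts with the miR-182 and miR-708 inhibitors come from a list made with the values known. Setting them beside these shares is therefore no test either. The first list leaves out Mgst1, which is shared with the mitochondrial membrane and rose in 2 tables, and Hmox1, which is anchored in the reticulum membrane and fell in all 3. It also leaves out the other microsomal transferases, Mgst2 and Mgst3, which were not called in any table. Mgst3 stood at 210 FPKM in the control and at 205, 207 and 196 FPKM with the inhibitors. Mgst2 stood at 55.8 FPKM and at 58.7, 60.2 and 58.5 FPKM. The mitochondrial list leaves out Prdx5, found also in peroxisomes and cytosol, at 485 FPKM in the control and not called in any table. It includes Txnrd2, whose locus is given to 4 genes. The sums of both lists depend on these choices. Uncalled reticulum members did not all lie on the side of the called ones. Txndc16 stood at 3.78 FPKM in the control and at 3.76, 3.35 and 2.77 FPKM, and Txndc12 at 59.1 FPKM and at 51.9, 57.3 and 62.2 FPKM. The precursor markers rose and brown fat markers fell in the same tables, and their part in these sums was not tested.

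A 7-base site complementary to the seed was sought in the longest 3′ untranslated region of each gene's principal transcripts (GENCODE M21, GRCm38). Sites for miR-182 were found in 3 of 59 genes (5.08%, against 11.1% of all tested genes with such a region), for miR-203 in 3 (5.08%, against 15.6%) and for miR-708 in 7 (11.9%, against 14.0%). The members' untranslated regions were also shorter, with a median of 594 bases against 1004 bases for the miR-182 table's genes. Of the genes that changed, Txndc5 alone held a site for the microRNA inhibited, that of miR-708, and it rose in that table. This is 1 of the 7 members called higher there (14.3%), against 11.3% of all genes called higher and 14.0% of all tested genes. Txndc5 also rose with the miR-182 inhibitor, for which it held no site, by 1.37-fold against 1.28-fold with the miR-708 inhibitor. Srxn1 held 2 neighbouring sites for miR-708, with levels of 64.1 FPKM in the control and 43.3 FPKM with that inhibitor and no call. Txnrd1 held 1 site for miR-182 and 1 for miR-708 and was not called with either. The sites are printed on the strand of the gene, with the bases that pair with the seed in capitals, at chr13:38500883-38500889 on the minus strand for Txndc5, at chr2:152110083-152110089 and chr2:152110096-152110102 on the plus strand for Srxn1, and at chr10:82896064-82896070 (miR-182) and chr10:82897148-82897154 (miR-708) on the plus strand for Txnrd1, each interval being that of the capitals.
Txndc5 site for miR-708: ggagtctctgcAGCTCCTctcgggccttc
Srxn1 upstream site for miR-708: tgggttagctaAGCTCCTttgagcagctc
Srxn1 downstream site for miR-708: ctcctttgagcAGCTCCTctgatgtggcc
Txnrd1 site for miR-182: tgtggatgctgTTGCCAAgactacagacc
Txnrd1 site for miR-708: cggtgtagtttAGCTCCTaggttacatga

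Genes around these pathways were counted in the same tables, where 8.40%, 4.72% and 4.51% of all tested genes rose and 6.23%, 2.51% and 3.05% fell with the miR-182, miR-203 and miR-708 inhibitors. A count of 1 in a list of 10 to 15 is near these shares and says nothing about the list. Of 10 tested rows for NRF2 and its regulators, 1 fell with the miR-182 inhibitor and 1 with the miR-708 inhibitor, in both cases Maff, a small partner protein of NRF2, at 19.1 FPKM in the control and 13.5, 15.1 and 14.5 FPKM with the inhibitors. With the miR-203 inhibitor Cuffdiff called none, and 1 was lower at an unadjusted p below 0.05. Nfe2l2, which encodes NRF2 itself, stood at 41.2 FPKM in the control and at 33.9, 35.7 and 36.5 FPKM, with no call. Of 15 other NRF2 target genes, Abcc4, an efflux pump, fell in each table, from 7.25 FPKM in the control to 3.18, 5.25 and 4.66 FPKM. Osgin1 was called higher with the miR-203 inhibitor (1.60 FPKM in the control and 3.55 FPKM) and Hmgn3 with the miR-708 inhibitor (6.55 and 11.7 FPKM).

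Of 10 genes that supply NADPH, 2 rose in each table, Aldh1l1 and Nnt. Aldh1l1, a folate enzyme of the cytosol, stood at 47.8 FPKM in the control and at 107, 74.1 and 70.4 FPKM with the inhibitors. Nnt, the transhydrogenase of the inner mitochondrial membrane, stood at 1.01 FPKM in the control and at 1.84, 1.47 and 1.72 FPKM. With the miR-182 inhibitor 2 genes of mitochondrial enzymes fell, Mthfd2 from 105 to 73.9 FPKM and Idh2 from 163 to 111 FPKM. Of 11 genes of glutathione breakdown and cysteine supply, Ggt5 rose in each table, from 1.68 FPKM in the control to 4.66, 2.99 and 3.13 FPKM. The peptidase gene Anpep stood at 1.90 FPKM in the control and at 5.34, 3.67 and 4.49 FPKM, and was called higher in the miR-203 and miR-708 tables only. Slc3a2, Oplah and Chac1 fell with the miR-182 inhibitor, Chac1, which cleaves glutathione, from 20.7 to 11.7 FPKM, and Cbs fell with the miR-203 inhibitor from 3.64 to 1.69 FPKM.

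Of 10 genes for selenoproteins and their synthesis, Sepp1, which carries selenium in plasma, rose in each table from 148.0 FPKM in the control to 232, 197 and 200.4 FPKM, and Selm rose with the miR-182 inhibitor from 11.3 to 18.2 FPKM. None of these 10 fell by Cuffdiff's q-value, with 1, 0 and 0 lower at an unadjusted p below 0.05. Among the 7 tested zinc transport and sensing genes, Slc30a4 fell with the miR-182 inhibitor from 7.79 to 5.50 FPKM, and Mtf1, the zinc sensor, stood at 11.6 FPKM in the control and 14.7, 12.6 and 12.8 FPKM with no call. In the miR-203 and miR-708 tables Cuffdiff called 0 of these 7, and 1 was lower at an unadjusted p below 0.05 in each. None of 11 glutaredoxin, methionine sulfoxide reductase and glyoxalase genes and none of 3 tested NADPH oxidase genes was called by Cuffdiff in any table. At an unadjusted p below 0.05 each of these lists held 1 higher gene with the miR-708 inhibitor and 0 with the other inhibitors.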

How the data were processed

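The 8 samples (2 per group) were grouped by their titles. TopHat2 2.0.9, Cuffdiff 2.1.1 and the mouse build mm10 are named in the submitters' processing notes, whereas their options, the annotation and handling of strand stay unstated, being not given in the sources used here; a directional library kit was used per the labels. The authors deposited 3 tables, each with 1 FPKM value per gene for an inhibitor and for the control, a log2 fold change, a p-value and a q-value. Replicates were pooled before deposit, so no SD can be given. Depth is unknown.

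Calls are those of the authors' deposited tables at a q-value below 0.05, since values for single samples are needed for any other test; 14391, 14371 and 14316 genes were tested. FPKM ratios were computed with Python 3.11.15, pandas 2.3.3 and numpy 2.4.6, figures with matplotlib 3.10.9; log2 ratios used a pseudocount of 1 FPKM and a mean over the 4 groups of at least 1 FPKM. The deposited log2 fold changes equalled the log2 ratio of the deposited FPKM within 0.01 in 18931, 18929 and 18929 of 18933 genes. The 2 empty lines of every table were left out. Shares of all tested genes at an unadjusted p below 0.05 were not computed, so counts at that p are description only. Scripts were tested on simulated data.

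The genes given by value in all 4 groups were those called in at least 1 table, the 2 with the highest control FPKM in each role and a fixed set of well-known members; of the pathway lists the called genes were named, with Nfe2l2, Mtf1 and Gsto2 added after their values were seen. Members and lists were chosen with earlier results of these data known. The grouping by compartment and the second antioxidant core were added after seeing the data. Promoters and microRNAs are from RefSeq (GRCm38.p6), transcripts from GENCODE M21. Alternatives were a stricter q, an adjustment within each table, filters on level, fold and shared loci, other pseudocounts and centring.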

Additional observations from a re-analysis of the deposited data

How the results depend on the processing

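Requiring a fold of at least 1.5 beside the authors' q-value left 4 of the 8 genes higher with the miR-182 inhibitor, 1 of 3 higher and 1 of 3 lower with the miR-203 inhibitor, and 2 of 7 higher with the miR-708 inhibitor. A q-value below 0.01 left 5 of the 8 genes lower with the miR-182 inhibitor and 3 of the 7 higher with the miR-708 inhibitor. The other counts of called genes stayed within 1.5 times under every alternative, among them the filter on FPKM and leaving out loci given to several genes. Adjusting the authors' p-values within each table added Prdx3, Txnip and Txnl1 with the miR-182 inhibitor (11 lower) and Mt1 with the miR-203 inhibitor (4 lower). No called gene changed direction under any alternative, though of these only centring can change a sign. Centring on all genes turned the sign of 4 uncalled values near 0, those of Txndc16 with the miR-182 inhibitor and of Prdx1, Prdx6 and Txn1 with the miR-203 inhibitor. The median log2 ratio with the miR-182 inhibitor, -0.0399, became -0.0523 with a pseudocount of 0.1 FPKM, -0.0524 with none, -0.0510 at a mean of at least 10 FPKM and -0.0237 when centred on all genes. Centring subtracts the median of all genes, -0.0114 and -0.0176 in the miR-203 and miR-708 tables. It thus moved the medians of these tables from -0.0248 to -0.0134 and from 0.0167 to 0.0342. The main miR-182 median is the value of Gstp2, a gene at 1.23 FPKM in the control. Without a pseudocount Gstp2 stood at -0.0730, and the median, -0.0524, was the value of Txnrd1. At a mean of at least 10 FPKM the median, -0.0510, was again the value of Txnrd1. No paired analysis was possible because the deposited tables hold 1 pooled value per group, and leaving out a replicate was not run for the same reason. Depth and sample spread are not in the tables, so small differences among genes at a few FPKM cannot be weighed here.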
